A study of Mus musculus with 15 samples.

Results

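The genes described here are 38 markers of T cells and natural killer cells, of 20145 genes named on the array, read in liver macrophage samples. They were taken from a fixed list of names: 25 belong to the T cell receptor apparatus or to T cell identity, and 13 are receptors, transcription factors and secreted products of natural killer and cytotoxic cells. RNA came from mouse liver macrophages sorted for a high surface level of the macrophage antigen encoded by Adgre1, and each sample was pooled from 7 to 9 male mice. The healthy group (WT_SD) was wild type on standard diet and was sorted as CD11c-negative. Both disease groups came from mice lacking the melanocortin 4 receptor (MC4R-KO) with non-alcoholic steatohepatitis. These mice were given Western diet from 8 weeks of age for 20 weeks, and their macrophages were separated into CD11c-negative and CD11c-positive fractions. Genotype and diet changed together, so their effects cannot be told apart, and the age of the healthy mice was not given in the sources used here. Each group had 5 one-colour arrays. No label says that the 5 samples of a group were separate pools, so each p-value is read against sample-to-sample variation that may be technical only. The number of arrays limits the precision.

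T cells recognise peptide through a receptor whose signal is carried by the CD3 chains, started by the kinases Lck and Zap70 and relayed by adaptors such as Lat. Natural killer cells use germline-encoded receptors, many from the C-type lectin Klr family, and kill target cells with perforin and granzymes. Both cell types are abundant in the liver, where natural killer cells and innate-like T cells make up a large part of the lymphocytes. The groups compared are sorted macrophages, so these transcripts are minor ones for the labelled cell type. In bulk RNA, fewer cells of a type and less RNA per cell cannot be told apart.

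Levels are log2 signal relative to the 75th percentile of the probes of the same array, so 0 is the percentile and a difference of 1 is a 2-fold change; a level is not comparable between genes, since each probe has its own brightness. All 38 members had a probe. A gene was tested if its probe was well above background on at least 4 of the 5 arrays of at least 1 group, which left 13390 genes and 36 of the 38 members. Of these 36, 25 passed in all 3 groups, 9 in 2 groups and 2 in 1 group. A member that passed only through the group in which it is bright had to differ between groups, so the main counts are given below also over the 25. The 2 that passed through the healthy group alone were Lef1 and Trat1; the 9 that passed in 2 groups were Cd8a, Txk, Sh2d1a, Bcl11b, Tcf7, Gata3, Eomes, Ncr1 and Klre1. Cd247, the CD3 zeta chain, was not well above background on any array. Ctla4, an inhibitory receptor of activated and regulatory T cells, was above it on 1 array, of the healthy group. A gene is called where limma's moderated test, with Benjamini-Hochberg adjustment over all 13390 genes, gives an adjusted p under 0.05. The SD of a gene over 5 arrays had a median of 0.075 log2 units in the healthy group, 0.089 in the CD11c-negative disease group and 0.07 in the CD11c-positive one.

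The labels were checked on a few genes. Adgre1, which encodes the macrophage antigen used in the sort, was at 7.34 ± 0.0466 in the healthy group, 7.74 ± 0.0661 in the CD11c-negative disease group and 7.31 ± 0.0242 in the CD11c-positive one (mean ± SD, n = 5). Itgax, which encodes CD11c, rose over the same groups from 4.21 ± 0.0306 through 5.93 ± 0.0707 to 7.29 ± 0.0281, so the fraction sorted as CD11c-positive had the most. Mc4r was not well above background on any array, so the genotype could not be checked from its transcript. The arrays lay on 2 slides, each holding all 3 groups, with 8 and 7 arrays.

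Most of the measured members were lowest in the CD11c-negative disease group. Of the 36 measured members, 30 had their lowest mean there, against 22.1% of all genes tested; of the 25 measured in every group, 20 did. The T cell and the natural killer genes parted in the CD11c-positive disease group: 20 of 23 T cell members ran healthy, CD11c-positive, CD11c-negative from highest to lowest, as did 4 of 13 natural killer and cytotoxic members and 13.4% of all genes (12 of 15 and 4 of 10 among the 25). The highest mean was in the healthy group for 22 of 23 T cell members, and in the CD11c-positive group for 7 of 13 natural killer and cytotoxic members (14 of 15 and 4 of 10 among the 25). Of all 13390 genes tested, 30.6% were highest in the healthy group and 5235 genes in the CD11c-positive group. The 4 of 10 natural killer and cytotoxic members are thus near the share of all genes. The median level of the T cell members was -0.043 to 0.11 on the healthy arrays, -1.65 to -1.25 on the CD11c-negative disease arrays and -0.82 to -0.65 on the CD11c-positive ones. For the natural killer and cytotoxic members the same medians were -0.16 to -0.0085, -1.70 to -1.47 and -0.37 to -0.25. In neither class did the medians of any pair of groups overlap.

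**Figure D1:**
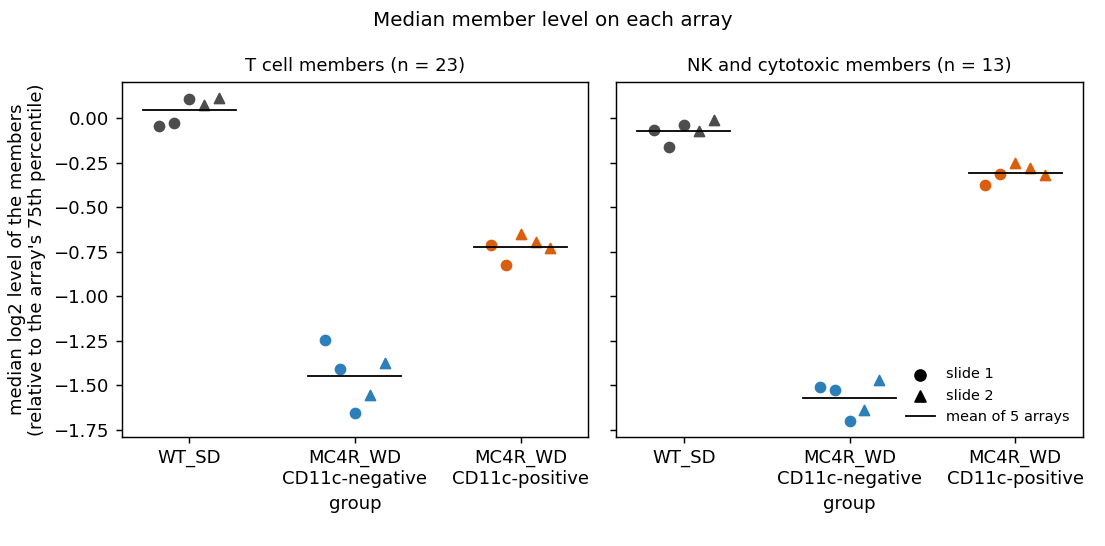
Median log2 level of the 23 measured T cell members (left) and the 13 natural killer and cytotoxic members (right) on each of the 15 arrays, relative to the array's 75th percentile; circles are slide 1, triangles slide 2 and bars the mean of 5 arrays. In both classes the CD11c-negative disease arrays are the lowest, and the CD11c-positive arrays lie nearer the healthy ones for the natural killer class.

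The first comparison asks what differed between CD11c-negative macrophages of diseased and healthy liver. Of the 36 measured members, 31 were called lower in the disease group, 3 were called higher and 2 were not called. Over all genes tested, 28.5% were called lower and 48.3% higher, 76.8% in all. Of the 25 members that passed in every group, 21 were lower, 2 higher and 2 not called. The 2 groups did not overlap in 31 of the lower members and in 2 of the higher ones, against 23.3% and 40.7% of all genes, 64% in all. Among the 25 these were 21 and 2. At least 2-fold lower were 26 of the 36 members, 18 of the 25 and 6.22% of all genes; 2-fold higher were 0 members and 5.18% of all genes. The median difference was -1.50 for T cell members and -1.55 for natural killer and cytotoxic members, and 0.13 for all genes. The T cell median was -1.38 with bounds. There, 4 genes that were below background in the disease group were set at their difference from a detection floor, defined with Trat1 below. Under normexp background correction the medians were -0.75 and -0.95, and 15 of the 34 called members moved by over 1.5 times. For T cell members it was -1.44 on slide 1, -1.53 on slide 2 and -1.50 with slide as a block; for the natural killer class it was -1.60 on slide 1, -1.50 on slide 2 and -1.55 with slide as a block.

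The second comparison sets the CD11c-positive against the CD11c-negative fraction of the same disease. Here 28 of the 36 members were called higher, 1 lower and 7 were not called; of all genes 29.9% were higher and 23.2% lower, 53.1% in all. The 25 fully measured members split into 20 higher, 1 lower and 4 not called. The median difference was 0.64 for T cell members (0.60 with bounds), 1.31 for the natural killer class and 0.015 for all genes. Under normexp the class medians were 0.21 and 0.47, and 13 of the 29 called members moved by over 1.5 times. At least 2-fold higher were 5 of 23 T cell members, 8 of 13 natural killer and cytotoxic members, 7 of the 25 and 1.66% of all genes; 0 members and 1.19% of all genes were 2-fold lower. Without overlap, 27 members were higher and 1 lower (20 and 1 of the 25), against 22.7% and 16.5% of all genes, 39.2% in all. Within slides the T cell median was 0.70 on slide 1, 0.65 on slide 2 and 0.69 with slide as a block, and the natural killer median was 1.26 on slide 1, 1.27 on slide 2 and 1.27 with slide as a block.

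The third comparison, the CD11c-positive disease group against the healthy one, separated the classes. Of 23 T cell members 19 were lower, 1 was higher and 3 were not called; of 13 natural killer and cytotoxic members 5 were lower, 6 higher and 2 not called. Over all genes 26.3% were lower and 51.4% higher, 77.6% in all. The 25 fully measured members gave 19 lower and 6 higher. Without overlap, 21 members were lower and 5 higher (16 and 5 of the 25), against 22.6% and 46.2% of all genes, 68.8% in all. At least 2-fold lower were 6 T cell and 2 natural killer members (5 of the 25) and 7.02% of all genes, and 2-fold higher 1 member, Klrd1, and 6.65% of all genes. The medians were -0.73 and 0.096, against 0.16 for all genes. Under normexp they were -0.51 and 0.0047, and 6 of the 31 called members moved by over 1.5 times. The T cell median was -0.77 on slide 1, -0.76 on slide 2 and -0.76 with slide as a block. That of the natural killer class was 0.024 on slide 1, 0.17 on slide 2 and 0.077 with slide as a block, and it was -0.31 over the members above background on all 15 arrays, so its sign is not settled. The 3 comparisons share their groups, so they are not independent of each other.

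Scaling bears on these splits. Of the called genes, 62.9% were higher as scaled here and 48.4% under quantile normalization for CD11c-negative disease against healthy and 66.2% against 53.5% for CD11c-positive against healthy, and the median of all genes in the first of these went from 0.13 to -0.0033. The members' counts moved less: 31 lower and 3 higher in the first comparison, 28 higher and 1 lower in the second, and 23 lower and 5 higher in the third.

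**Figure D2:**
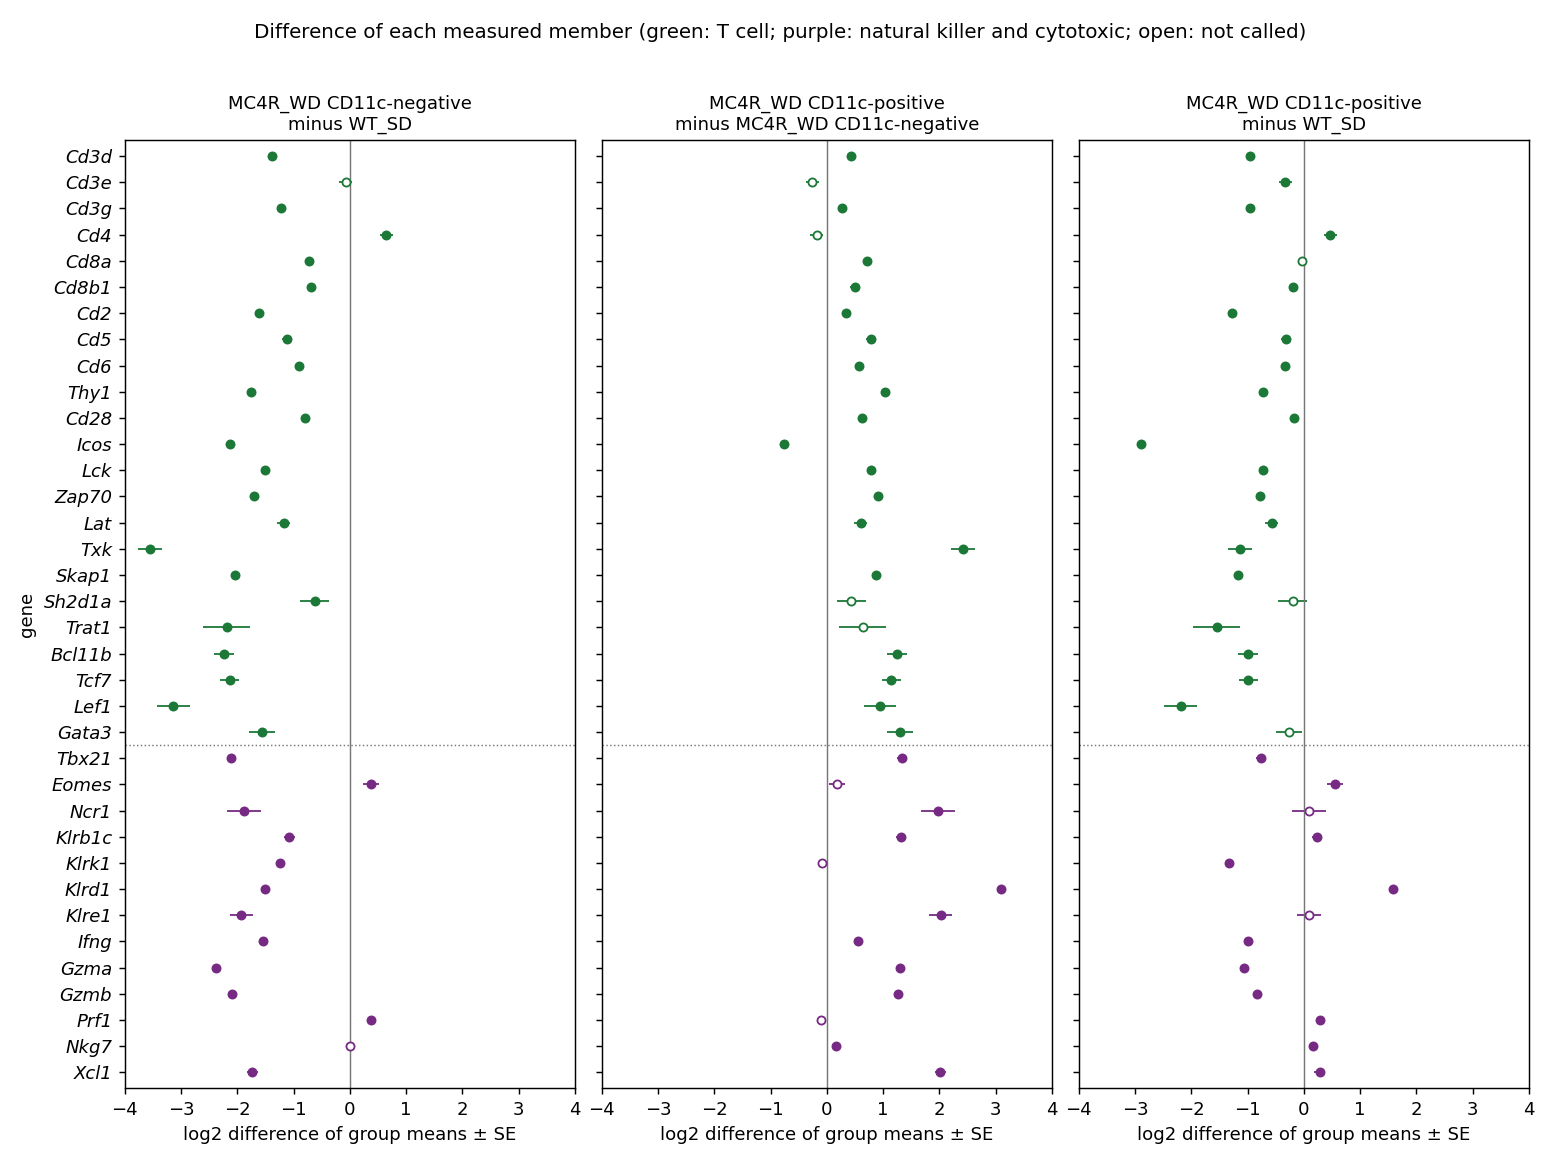
Log2 difference of group means with its standard error for the 36 measured members in the 3 comparisons (green, 23 T cell members above the dotted line; purple, 13 natural killer and cytotoxic members; open symbols were not called). Most points lie left of 0 in the first panel and right of 0 in the middle one, while in the third the T cell members lie mainly left of 0 and the natural killer members on both sides.

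The CD3 complex was not uniform. Cd3d, Cd3e and Cd3g encode the delta, epsilon and gamma chains that pair with each other and carry the receptor's signal, and lie side by side on chromosome 9. Their promoters are shown because the delta and gamma genes, read from opposite strands, moved alike and the epsilon gene did not follow them. The windows run from 250 bases before to 50 bases after the RefSeq start, 5′ to 3′ on the gene's strand, on GRCm38.p6: chr9:44981536-44981835 (plus strand), chr9:44980382-44980681 (minus strand) and chr9:45009562-45009861 (minus strand). Capitals mark matches, on either strand, to one of these short motifs. The RUNX factor motif was searched as TGTGGT and the T-box factor motif as GGTGTG. For the TCF and LEF factors the letters CTTTGA were used, and for the GATA factors AGATAA; matches of different motifs may overlap.
Cd3d: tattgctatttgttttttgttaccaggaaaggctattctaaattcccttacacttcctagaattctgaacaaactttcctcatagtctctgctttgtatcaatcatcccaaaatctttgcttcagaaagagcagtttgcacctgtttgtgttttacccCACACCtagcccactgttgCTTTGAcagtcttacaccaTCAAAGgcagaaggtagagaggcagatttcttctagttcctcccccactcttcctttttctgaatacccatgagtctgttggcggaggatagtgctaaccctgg
Cd3g: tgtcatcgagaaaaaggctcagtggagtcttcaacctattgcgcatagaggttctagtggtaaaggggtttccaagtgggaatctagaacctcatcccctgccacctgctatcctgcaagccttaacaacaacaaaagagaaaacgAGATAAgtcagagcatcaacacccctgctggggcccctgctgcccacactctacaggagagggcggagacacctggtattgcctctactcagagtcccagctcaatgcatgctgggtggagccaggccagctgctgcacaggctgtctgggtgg
Cd3e: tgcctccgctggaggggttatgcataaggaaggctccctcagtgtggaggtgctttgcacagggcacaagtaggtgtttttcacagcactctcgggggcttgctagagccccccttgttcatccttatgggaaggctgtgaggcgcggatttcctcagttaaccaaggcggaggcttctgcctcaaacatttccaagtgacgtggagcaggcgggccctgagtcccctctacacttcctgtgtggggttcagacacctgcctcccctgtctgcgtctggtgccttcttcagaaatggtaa
The Cd3d window held 1 T-box and 2 TCF/LEF matches, the Cd3g window 1 GATA match and the Cd3e window none. Among all 32851 promoters of this length in the RefSeq table, 19% held the T-box letters, 16% the TCF/LEF letters and 11.2% the GATA letters. A match is a description of the letters and not a binding site.

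Cd3d stood at 0.78, 0.88, 0.71, 0.89 and 0.88 on the healthy arrays, -0.61, -0.65, -0.70, -0.44 and -0.38 on the CD11c-negative disease arrays and -0.18, -0.26, -0.068, -0.053 and -0.089 on the CD11c-positive ones (replicates 1 to 5). No values overlapped, with the healthy arrays highest and the CD11c-negative ones lowest. The differences were -1.38 (SE 0.0651, adjusted p = 7.5e-11) for CD11c-negative disease against healthy and 0.43 (SE 0.0651, adjusted p = 7.21e-05) for CD11c-positive against CD11c-negative, by limma. Cd3g took the same order: 0.17, 0.16, 0.25, 0.30 and 0.28 healthy, -0.97, -1.10, -1.13, -0.84 and -0.89 CD11c-negative and -0.71, -0.82, -0.65, -0.69 and -0.73 CD11c-positive. Its differences were -1.22 (SE 0.0558, adjusted p = 5.37e-11) and 0.27 (SE 0.0558, adjusted p = 0.00108).

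Cd3e behaved differently. It was at 2.43, 2.44, 2.27, 2.10 and 2.18 in the healthy group, 2.47, 2.25, 2.49, 1.92 and 1.95 in the CD11c-negative disease group and 2.09, 2.07, 1.79, 1.98 and 1.83 in the CD11c-positive one. The first 2 groups overlapped, and their difference was -0.07 (SE 0.117, adjusted p = 0.598), which was not called. Against the healthy group the CD11c-positive group was lower without overlap, with a difference of -0.33 (SE 0.117, adjusted p = 0.0189). Arrays of slide 1 were higher than those of slide 2 in all 3 groups. CD11c-negative against healthy was 0.021 (adjusted p = 0.821) on slide 1 and -0.21 (adjusted p = 0.0413) on slide 2. CD11c-positive against CD11c-negative was -0.26 (SE 0.117, adjusted p = 0.0768) over all arrays and -0.20 (adjusted p = 0.0176) with slide as a block, -0.32 (adjusted p = 0.0240) on slide 1 and -0.065 (adjusted p = 0.446) on slide 2. It was also called without CD11c-negative replicate 4 (-0.34, adjusted p = 0.0247) or replicate 5 (-0.33, adjusted p = 0.0312).

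Coreceptors and adhesion molecules followed the majority, apart from Cd4. Cd4, the coreceptor of helper T cells and also transcribed by some myeloid cells, was at 2.96, 3.09, 2.78, 2.74 and 2.67 in the healthy group and at 3.58, 3.55, 3.80, 3.28 and 3.27 in the CD11c-negative disease group, higher by 0.65 (SE 0.114, adjusted p = 0.000115) with no overlap. In the CD11c-positive group it was at 3.34, 3.59, 3.25, 3.27 and 3.13, higher than healthy by 0.47 (SE 0.114, adjusted p = 0.00173) and overlapping the CD11c-negative group. Under quantile normalization this second difference was 0.21 and was not called (adjusted p = 0.157). Within slide 1 and slide 2 the first difference was 0.70 (adjusted p = 0.00108) and 0.57 (adjusted p = 0.000247). A second Cd4 probe, spotted 10 times, was near background (-3.66, -3.51 and -3.54) and gave 0.14 (adjusted p = 0.168 over all probes), so the higher Cd4 signal rests on 1 probe. Cd8a and Cd8b1, the chains of the cytotoxic T cell coreceptor, were lower in CD11c-negative disease than in healthy cells (differences of -0.73 and -0.68) and higher in the CD11c-positive than in the CD11c-negative group (0.71 and 0.49). Under normexp the same 4 differences were -0.26, -0.30, 0.16 and 0.11, and the last was not called (adjusted p = 0.0861). Cd8a in the CD11c-positive group was at -2.53 ± 0.0949 and in the healthy group at -2.50 ± 0.0552 (SD, n = 5), a difference that was not called. Cd8b1 was lower there than in healthy cells by a difference of -0.19 (adjusted p = 0.0375), a call lost without any 1 of healthy replicates 1, 3 and 4 or CD11c-positive replicates 1, 3 and 4 (limma adjusted p = 0.0507 to 0.105). In all, this Cd8b1 call was lost in 11 of 27 other settings. Under quantile normalization the difference was -0.069 (limma adjusted p = 0.381), and on slide 2 alone -0.19 (limma adjusted p = 0.214).

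Thy1, a surface glycoprotein of T cells and innate lymphocytes, was at 2.09, 2.15, 2.02, 2.24 and 2.23 in the healthy group, 0.30, 0.31, 0.27, 0.55 and 0.53 in the CD11c-negative disease group and 1.34, 1.31, 1.48, 1.51 and 1.47 in the CD11c-positive one. The 3 groups were apart, with differences of -1.76 (SE 0.0668) and 1.03 (SE 0.0668) for the first and second comparisons. Cd2, an adhesion receptor of T and natural killer cells, was at 2.12, 2.05, 2.14, 2.11 and 2.12 on the healthy arrays, at 0.45, 0.56, 0.38, 0.56 and 0.51 on the CD11c-negative ones and at 0.82, 0.80, 0.81, 0.78 and 0.91 on the CD11c-positive ones. Its differences were -1.62 (SE 0.0377) for CD11c-negative disease against healthy and 0.33 (SE 0.0377) for CD11c-positive against CD11c-negative. A second Cd2 probe gave -1.69 and 0.35. The scavenger receptor family members Cd5 and Cd6, which temper receptor signalling, had means of 0.045, -1.07 and -0.28 for Cd5 and 0.30, -0.61 and -0.041 for Cd6, and all 6 of their differences were called. The dimmer Cd6 probe ran the other way without being called (0.41 and -0.057), and with the mean of its probes Cd6 was called in none of the 3 comparisons (-0.25, 0.26 and 0.0059, with a lowest adjusted p of 0.0982 by limma), so its calls rest on 1 probe.

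Among the costimulatory receptors, Icos departed from the other T cell members. Icos, an inducible costimulator of activated T cells, fell in both steps: it was at 3.57, 3.51, 3.56, 3.60 and 3.65 on the healthy arrays, 1.43, 1.45, 1.31, 1.54 and 1.48 on the CD11c-negative disease arrays and 0.68, 0.64, 0.67, 0.70 and 0.69 on the CD11c-positive arrays. No group overlapped another. The differences were -2.14 (SE 0.0387, adjusted p = 1.84e-15), -0.76 (SE 0.0387, adjusted p = 7.78e-10) and, from healthy to CD11c-positive, -2.90 (SE 0.0387, adjusted p = 5.23e-17), which is 7.48-fold. Icos was called lower in the CD11c-positive than in the CD11c-negative fraction; Cd3e was called lower there too once slide or replicate number was a block. Its other probe gave -2.07 and -1.0 for the first 2 of these. Cd28, the constitutive costimulatory receptor, was at -0.80 ± 0.0958, -1.61 ± 0.0882 and -0.98 ± 0.0529 (SD, n = 5), lowest in the CD11c-negative group. It was called lower in the CD11c-positive group than in healthy cells (-0.18, SE 0.0507, adjusted p = 0.00479), and not within slide 1 (adjusted p = 0.0624) or slide 2 (adjusted p = 0.0789).

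**Figure D3:**
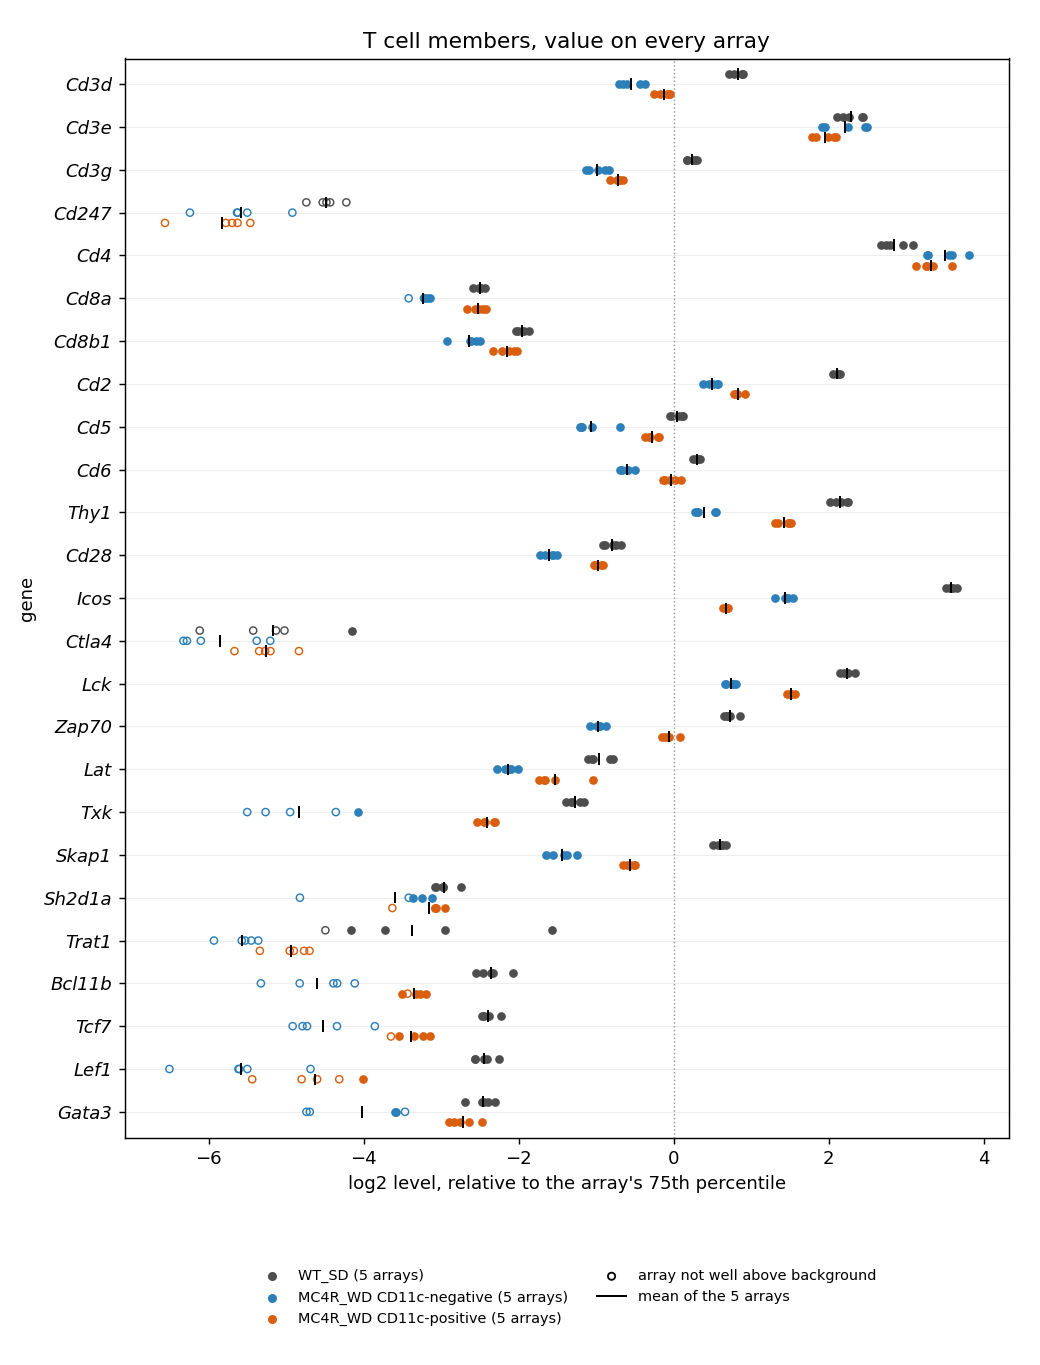
Log2 level of the 25 T cell members on each of the 15 arrays, relative to the array's 75th percentile (dotted line at 0); filled symbols are well above background, open ones are not, and bars are means of 5 arrays. For most genes the CD11c-negative disease arrays lie to the left; Cd4 lies to the right in both disease groups, Icos is lowest in the CD11c-positive group, and Cd247 has no filled symbol.

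All 7 receptor-proximal signalling genes were called lower in CD11c-negative disease than in healthy cells, against 28.5% of all genes. Of these, Txk, Sh2d1a and Trat1 did not pass the background filter in the CD11c-negative group. Lck, the Src-family kinase that phosphorylates the CD3 chains, was at 2.24, 2.20, 2.14, 2.33 and 2.25 in the healthy group, 0.80, 0.66, 0.67, 0.76 and 0.76 in the CD11c-negative group and 1.51, 1.46, 1.57, 1.5 and 1.52 in the CD11c-positive group. Zap70, the kinase recruited next, was at 0.73, 0.68, 0.64, 0.69 and 0.85 on the healthy arrays, at -0.97, -0.99, -1.09, -0.88 and -0.96 on the CD11c-negative ones and at -0.11, -0.15, -0.069, -0.075 and 0.08 on the CD11c-positive ones. Both genes had 3 separate groups, with the CD11c-positive arrays between the others. Lck differed by -1.50 (SE 0.0385) and 0.78 (SE 0.0385), and Zap70 by -1.70 (SE 0.0509) and 0.91 (SE 0.0509). The scaffold Lat had means of -0.96, -2.14 and -1.53, and Skap1, an adaptor that links the receptor to integrins, of 0.60, -1.45 and -0.57; their differences were called in all 3 comparisons, apart from that of Lat between CD11c-positive and healthy cells on slide 1 alone (adjusted p = 0.160). Under normexp Lat differed by -0.70 and 0.22 in the first and second comparisons.

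Txk, a Tec-family kinase of T and natural killer cells, was at -1.33, -1.21, -1.39, -1.31 and -1.16 in the healthy group, -4.07, -5.50, -5.27, -4.36 and -4.95 in the CD11c-negative group, where 1 of 5 arrays was well above background, and -2.31, -2.45, -2.55, -2.44 and -2.31 in the CD11c-positive group. The fitted differences were -3.55 (SE 0.211, adjusted p = 1.05e-09) and 2.42 (SE 0.211, adjusted p = 2.78e-07), and no groups overlapped. Under normexp these were -1.42 and 0.65, both called. Trat1, a transmembrane adaptor of the receptor complex, varied most among the healthy arrays: -4.16, -2.95, -1.57, -4.50 and -3.73, with 4 of 5 above background. It was -5.45, -5.53, -5.36, -5.58 and -5.93 in the CD11c-negative group and -4.90, -5.34, -4.77, -4.70 and -4.96 in the CD11c-positive group, with no array above background in either. Neither a fold nor a p is therefore given between them. The fit did not call that difference over all arrays and called it in 3 of 25 other settings, which is not read with both sides below background. Where a group is wholly below background only a bound is given, the mean of the brighter group against the detection floor of the dimmer one. Trat1 was at least 1.40-fold lower in CD11c-negative disease and at least 1.74-fold lower in the CD11c-positive group than in healthy cells, and at least 1.02-fold and 1.27-fold without healthy replicate 3. It was tested only because of its healthy level, so no p is given for these; under normexp the first was not called (-0.43). Sh2d1a, which encodes the adaptor SAP, had means of -2.97, -3.60 and -3.16 and was called in the first comparison alone (-0.63, SE 0.258, adjusted p = 0.0390), a call lost without any 1 of the 5 healthy arrays (limma adjusted p = 0.0512 to 0.0803) and under normexp (-0.068, adjusted p = 0.537).

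The T cell transcription factors were near or below background in CD11c-negative disease. Lef1, a factor of naive and early T cells, was at -2.56, -2.57, -2.41, -2.25 and -2.45 in the healthy group, -6.51, -5.61, -4.69, -5.62 and -5.50 in the CD11c-negative group and -4.32, -5.44, -4.02, -4.60 and -4.80 in the CD11c-positive group. All 5 healthy arrays were above background, against 0 CD11c-negative and 1 CD11c-positive array. It was at least 2.67-fold lower in the CD11c-negative group, and the CD11c-positive group differed from healthy by -2.19 (SE 0.290) without overlap; under normexp the differences were -0.78 and -0.86. Lef1 too was tested only because of its healthy level, so no p is given. Bcl11b, required for T cell commitment, was at -2.34, -2.55, -2.36, -2.08 and -2.46 on the healthy arrays, at -4.83, -5.33, -4.12, -4.34 and -4.39 on the CD11c-negative ones and at -3.51, -3.44, -3.33, -3.19 and -3.28 on the CD11c-positive ones, where 5, 0 and 4 arrays were above background. It was at least 2.84-fold lower in CD11c-negative disease than in healthy cells (adjusted p = 3.15e-08), and in the CD11c-positive group at least 1.43-fold higher than in the CD11c-negative one (adjusted p = 4.23e-05). Under normexp the first difference was -0.55 and called, and the second 0.068 and not called (adjusted p = 0.504), so the rise of Bcl11b depends on the background correction. Tcf7, a factor related to Lef1, had means of -2.40, -4.53 and -3.39, and the same bounds were 2.76-fold and 1.39-fold (adjusted p = 2.45e-08 and 5.03e-05); under normexp the differences were -0.65 and 0.14, below those bounds, and called. Gata3, a factor of helper T cells and innate lymphocytes, was at -2.48, -2.69, -2.39, -2.31 and -2.45 on the healthy arrays, at -3.60, -4.74, -3.47, -3.58 and -4.70 on the CD11c-negative ones and at -2.90, -2.76, -2.48, -2.83 and -2.65 on the CD11c-positive ones. It was lower in CD11c-negative disease, where 2 of 5 arrays were above background (-1.55, SE 0.231, adjusted p = 2.31e-05), and higher in the CD11c-positive group (1.29, SE 0.231, adjusted p = 0.000289); the CD11c-positive and healthy arrays overlapped. Under normexp these were -0.45 and 0.21, both called.

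Among natural killer factors, Tbx21 and Eomes, the T-box factors that direct natural killer and cytotoxic T cell development, went apart. Tbx21 was at -0.068, -0.18, -0.23, -0.26 and -0.39 in the healthy group, -2.14, -2.52, -2.18, -2.44 and -2.38 in the CD11c-negative disease group and -0.86, -1.02, -1.10, -1.11 and -0.86 in the CD11c-positive group. The groups did not overlap, and the differences were -2.11 (SE 0.0825, adjusted p = 9.48e-12), 1.34 (SE 0.0825, adjusted p = 6.82e-09) and, against healthy, -0.77 (SE 0.0825, adjusted p = 7.1e-07). Under normexp the first 2 were -1.27 and 0.70, both called. Eomes was near background throughout. It was at -3.20, -3.52, -3.90, -3.94 and -3.49 on the healthy arrays, at -2.94, -3.31, -3.12, -3.34 and -3.48 on the CD11c-negative arrays and at -2.98, -3.22, -3.05, -3.23 and -2.83 on the CD11c-positive ones, with 4, 3 and 4 arrays above background. Its values overlapped between every pair of groups. It was called higher in CD11c-negative disease than in healthy cells (0.37, SE 0.141, adjusted p = 0.0261), a call lost without healthy replicate 3 or 4 or CD11c-negative replicate 1 or 3 (limma adjusted p = 0.0569 to 0.0734) and within either slide (0.0864 and 0.182). It was also called higher in the CD11c-positive group than in healthy cells (0.55, SE 0.141, adjusted p = 0.00256), and not within slide 1 (adjusted p = 0.104) or under normexp (0.077, adjusted p = 0.294).

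The natural killer receptors were lower in CD11c-negative disease, all 5 of them, and 4 of 5 were higher in the CD11c-positive fraction. Over all genes, 28.5% were called lower in the first comparison and 29.9% higher in the second. Ncr1 and Klre1 did not pass the background filter in the CD11c-negative group. Klrd1, which encodes CD94, the partner of the NKG2 receptors, was at 0.051, -0.046, -0.07, 0.18 and 0.089 in the healthy group, -1.42, -1.53, -1.70, -1.42 and -1.30 in the CD11c-negative group and 1.55, 1.51, 1.69, 1.63 and 1.74 in the CD11c-positive group. Every CD11c-positive array was above every other array. The CD11c-positive group exceeded the CD11c-negative one by 3.1 (SE 0.0712, adjusted p = 1.37e-13), which is 8.55-fold, and the healthy one by 1.58 (SE 0.0712, adjusted p = 3.57e-11). Klrk1, which encodes the activating receptor NKG2D, did not follow: it was at -0.065, -0.088, 0.039, 0.054 and 0.12 in the healthy group, -1.19, -1.29, -1.41, -1.08 and -1.22 in the CD11c-negative group and -1.29, -1.43, -1.34, -1.33 and -1.21 in the CD11c-positive group. The disease groups overlapped and both lay below every healthy array, with differences of -1.25 (SE 0.0604, adjusted p = 1.02e-10) and -1.33 (SE 0.0604, adjusted p = 3.99e-11). The difference between the disease groups was -0.082 (SE 0.0604, adjusted p = 0.273).

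Klre1, a lectin-like receptor of natural killer cells, was at -2.50, -2.45, -2.59, -2.51 and -2.65 on the healthy arrays, at -3.98, -4.66, -5.39, -4.14 and -4.18 on the CD11c-negative ones and at -2.50, -2.68, -2.40, -2.41 and -2.25 on the CD11c-positive ones. Above background were 5 healthy, 1 CD11c-negative and 5 CD11c-positive arrays, and the healthy and CD11c-positive arrays overlapped. CD11c-positive exceeded CD11c-negative by 2.02 (SE 0.205, adjusted p = 1.33e-06). Ncr1, which encodes NKp46, had the same form, with means of -2.98, -4.86 and -2.89, 5, 1 and 4 arrays above background, and differences of -1.88 (SE 0.301) and 1.97 (SE 0.301). Under normexp Klre1 differed by 0.47 between the disease groups and Ncr1 by -0.41 and 0.42, all called. Klrb1c, the NK1.1 antigen, had means of -1.47, -2.54 and -1.23. Its lower and higher differences were -1.07 (SE 0.0904) and 1.31 (SE 0.0904). Against healthy cells it was 0.24 (SE 0.0904, adjusted p = 0.0262), a call lost without healthy replicate 1, 2 or 3 or CD11c-positive replicate 4 or 5 (limma adjusted p = 0.0518 to 0.0654) and under normexp (0.083, adjusted p = 0.296), where the first 2 were -0.52 and 0.61.

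**Figure D4:**
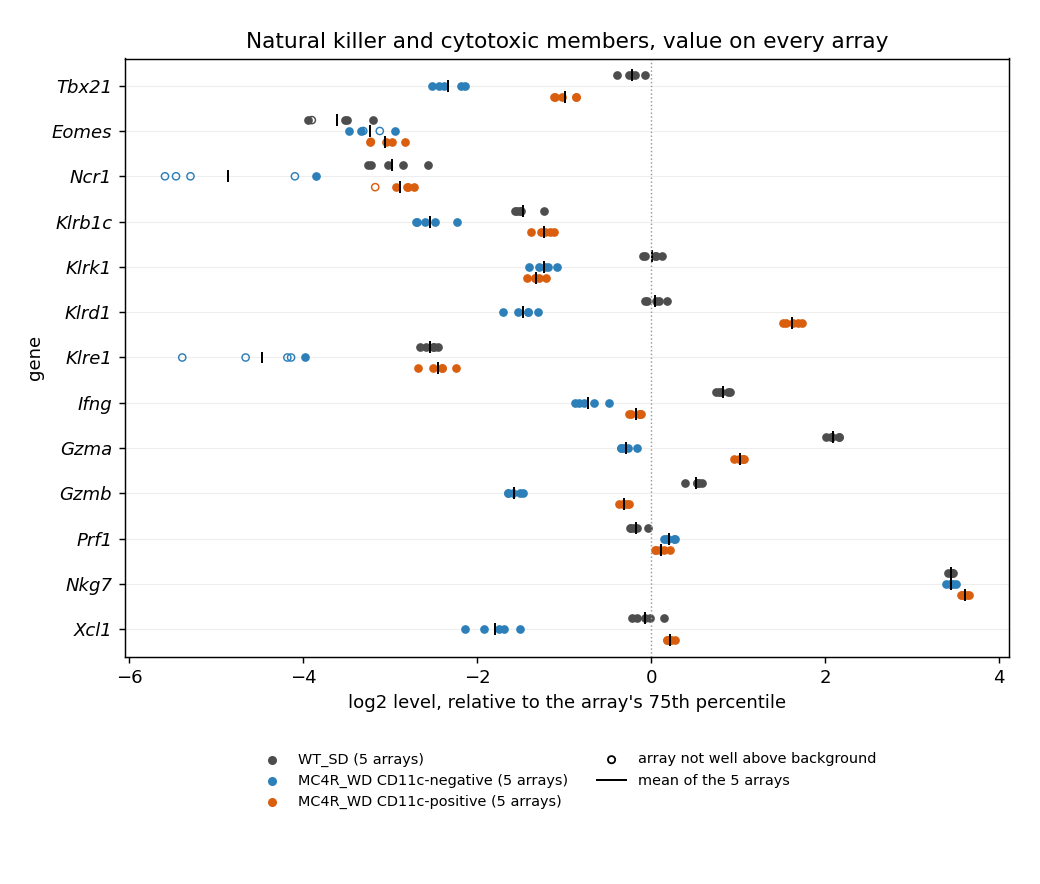
Log2 level of the 13 natural killer and cytotoxic members on each of the 15 arrays, relative to the array's 75th percentile (dotted line at 0); filled symbols are well above background, open ones are not, and bars are means of 5 arrays. Klrd1 is highest on the CD11c-positive arrays, Klrk1 is lower than healthy in both disease groups, and Prf1 and Nkg7 span a narrow range.

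The effector molecules divided. Gzma and Gzmb encode granzymes, the proteases that enter target cells through pores formed by perforin, the product of Prf1. Their promoters are shown for Gzmb and Prf1, which work together and moved in opposite directions in CD11c-negative disease; windows and capitals are as for the CD3 genes, at chr14:56262285-56262584 (minus strand) and chr10:61297586-61297885 (plus strand).
Gzmb: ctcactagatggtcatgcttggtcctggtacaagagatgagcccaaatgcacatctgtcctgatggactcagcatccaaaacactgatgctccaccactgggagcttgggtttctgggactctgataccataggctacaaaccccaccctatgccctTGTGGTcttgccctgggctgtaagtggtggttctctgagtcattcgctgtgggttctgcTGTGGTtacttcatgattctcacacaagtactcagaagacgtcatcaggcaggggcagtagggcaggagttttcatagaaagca
Prf1: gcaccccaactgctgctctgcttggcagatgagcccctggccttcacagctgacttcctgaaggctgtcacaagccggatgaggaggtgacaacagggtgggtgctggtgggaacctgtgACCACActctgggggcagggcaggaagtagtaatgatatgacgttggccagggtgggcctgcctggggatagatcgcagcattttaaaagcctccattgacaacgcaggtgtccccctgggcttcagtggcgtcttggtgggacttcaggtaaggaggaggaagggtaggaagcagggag
The RUNX letters occurred at 2 places in the Gzmb window and at 1 in the Prf1 window, and no other motif searched was found in either. The table held 38 promoters for 28 of the 38 members. The RUNX letters were in 10 of 14 promoters of natural killer and cytotoxic members (71.4%), in 5 of 24 promoters of T cell members (20.8%) and in 16.8% of all promoters; some genes have more than 1 promoter in the table. The T-box and TCF/LEF letters were in 33.3% of T cell member promoters each, and in 14.3% and 7.14% of those of the natural killer class.

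Gzma was at 2.16, 2.07, 2.01, 2.08 and 2.16 in the healthy group, -0.16, -0.26, -0.34, -0.34 and -0.31 in the CD11c-negative disease group and 1.06, 0.95, 1.06, 1.01 and 1.05 in the CD11c-positive group. Gzmb was at 0.55, 0.39, 0.53, 0.58 and 0.52 on the healthy arrays, at -1.51, -1.65, -1.59, -1.64 and -1.47 on the CD11c-negative ones and at -0.37, -0.31, -0.25, -0.28 and -0.32 on the CD11c-positive ones. Both had 3 separate groups, with the CD11c-positive arrays in the middle. Gzma differed by -2.38 (SE 0.0404, adjusted p = 9.03e-16) and 1.31 (SE 0.0404, adjusted p = 3.12e-12), and the CD11c-positive group was below the healthy one (-1.07, SE 0.0404). The same 3 differences of Gzmb were -2.09 (SE 0.0433), 1.26 (SE 0.0433) and -0.83 (SE 0.0433), all called. Prf1 was at -0.23, -0.16, -0.039, -0.24 and -0.20 on the healthy arrays, 0.19, 0.15, 0.27, 0.26 and 0.17 on the CD11c-negative arrays and 0.14, 0.22, 0.057, 0.10 and 0.043 on the CD11c-positive arrays. The disease groups lay above every healthy array, by 0.38 (SE 0.0448, adjusted p = 1.99e-06) and 0.29 (SE 0.0448, adjusted p = 3.44e-05), and overlapped each other (-0.094, SE 0.0448, adjusted p = 0.0920). Without CD11c-positive replicate 2 that last difference was called lower (-0.12, adjusted p = 0.0341).

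Ifng, the interferon of natural killer and T cells, was at 0.80, 0.75, 0.79, 0.91 and 0.88 in the healthy group, -0.82, -0.77, -0.87, -0.49 and -0.66 in the CD11c-negative group and -0.26, -0.23, -0.12, -0.14 and -0.12 in the CD11c-positive group. All 3 groups were apart, and the CD11c-positive group differed from the healthy one by -1.0 (SE 0.0637, adjusted p = 1.95e-09). Xcl1, a chemokine of cytotoxic lymphocytes whose receptor Xcr1 marks a class of dendritic cells, was at -0.17, -0.22, 0.15, -0.075 and -0.0085 on the healthy arrays, at -1.92, -1.51, -2.14, -1.75 and -1.69 on the CD11c-negative ones and at 0.22, 0.18, 0.18, 0.23 and 0.28 on the CD11c-positive ones. It was lowest in the CD11c-negative group and highest in the CD11c-positive group, without overlap: -1.74 (SE 0.0977, adjusted p = 5.59e-10), 2.02 (SE 0.0977, adjusted p = 4.68e-10) and, against healthy, 0.28 (SE 0.0977, adjusted p = 0.0168). The last of these was not called on slide 1 alone (adjusted p = 0.235). Nkg7, a membrane protein of cytotoxic granules, was at 3.46, 3.46, 3.44, 3.47 and 3.42 in the healthy, 3.43, 3.39, 3.50, 3.47 and 3.45 in the CD11c-negative and 3.60, 3.57, 3.56, 3.65 and 3.64 in the CD11c-positive group. The first 2 groups overlapped and their difference was not called (adjusted p = 0.978), while under quantile normalization it was -0.27 (adjusted p = 1.33e-06); CD11c-positive was higher than CD11c-negative by 0.16 (SE 0.0267, adjusted p = 0.000204). A dimmer Nkg7 probe was lower in CD11c-negative disease than in healthy cells, with a difference of -0.46 (adjusted p = 1.23e-05 over all probes). Against healthy cells the sign of Nkg7 in the CD11c-positive group flips under quantile normalization (-0.12).

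The other genes of the same pathways were counted in the same way, but not separately over genes that passed the filter in every group. The counts of this and the later lists therefore include genes that passed only through the group in which they are bright, such as Cd226. Of 21 further measured genes of the T cell receptor pathway, in CD11c-negative disease against healthy 7 were higher, 10 lower and 4 not called, where 48.3% and 28.5% of all genes were (median -0.16). In CD11c-positive against CD11c-negative 12 were higher and 3 lower (median 0.22), beside 29.9% and 23.2% of all genes. In CD11c-positive against healthy 10 were higher and 9 lower, beside 51.4% and 26.3% of all genes (median 0.11). Prkcq, the protein kinase C of the T cell synapse, had the largest fall against healthy in the CD11c-positive group (-1.82, SE 0.0362). Cd226, an activating receptor of T and natural killer cells, was at least 1.41-fold lower in CD11c-negative disease than in healthy cells. Its mean was higher in the CD11c-positive than in the CD11c-negative fraction, with 2 and 0 arrays above background, and no fold is given for a bound under 1. Cd226 was tested only because of its healthy level, with 4 arrays above background there, so no p is given. Sla2, an adaptor that dampens receptor signalling, fell by 0.41 in CD11c-positive against CD11c-negative.

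Of 28 further genes of the natural killer and cytotoxic program, 5 were higher and 16 lower in CD11c-negative disease (median -0.73; -0.68 with bounds). In CD11c-positive against CD11c-negative 20 were higher and 3 lower (median 0.83; 0.74 with bounds), and in CD11c-positive against healthy 8 were higher and 12 lower (median -0.16). The shares of all genes called in each direction are those given for the receptor pathway. Sh2d1b1, an adaptor also called EAT-2, rose in both disease groups, from -1.07 to 1.44 and 1.49 (2.51, SE 0.0447, and 2.56, SE 0.0447, against healthy). Klra1, of the Ly49 family, fell by 0.61 between the disease groups; Ly49 genes are close copies, and probes may not tell them apart. Klrc1, the NKG2 partner of Klrd1, fell against healthy in the CD11c-positive group (-2.33, SE 0.439), with 2 of 5 arrays above background there and 5 of 5 in the healthy group. Xcr1, the receptor of Xcl1, marks a class of dendritic cells and is counted both here and among the conventional dendritic cell markers below. It was at least 2.51-fold lower in CD11c-negative disease than in healthy cells (limma adjusted p = 1.16e-07). In the CD11c-positive fraction it was at least 3.24-fold higher than in the CD11c-negative one (limma adjusted p = 1.22e-07).

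Genes of T cell traffic and survival were lower in CD11c-negative disease in 6 of 9, with 1 higher, against 28.5% and 48.3% of all genes. Cxcr6, a chemokine receptor of liver-resident lymphocytes, fell most (-1.55, SE 0.0397), and Il7r, the interleukin 7 receptor, was the gene that rose (0.40, SE 0.0573). Ccr7, the homing receptor of naive T cells and of mature dendritic cells, rose most from the CD11c-negative to the CD11c-positive group, from 0.96 to 3.90 (2.95, SE 0.0462), where 5 of 9 rose and 3 fell, against 29.9% and 23.2% of all genes. Klf2, a factor that keeps T cells in circulation, fell most there (-0.51, SE 0.0208). In CD11c-positive against healthy 3 of 9 rose and 5 fell, against 51.4% and 26.3% of all genes. Il7r rose most in that comparison (2.07, SE 0.0573) and Klf2 fell most (-0.98, SE 0.0208).

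Markers of other cells also differed between the groups, some lists with the members and others against them, and their part in the results was not tested. Over all genes tested, 28.5% were called lower and 48.3% higher in CD11c-negative disease against healthy. Between the disease fractions 29.9% were called higher and 23.2% lower, and in CD11c-positive against healthy 51.4% higher and 26.3% lower. Of 9 measured markers of conventional dendritic cells, 8 were lower in CD11c-negative disease than in healthy cells and 8 were higher in the CD11c-positive than in the CD11c-negative fraction. Their summed level, in units of the 75th percentile, was 84.1 to 93.1 in the healthy group, 50.1 to 56.7 in the CD11c-negative group and 98.8 to 108 in the CD11c-positive group. Flt3, a growth factor receptor that defines this lineage, went from 1.36 to -1.78 and 2.57, and Xcr1 was above background on 5, 0 and 5 arrays. The summed T cell members were at 47.7 to 49.5, 25.2 to 30.2 and 28.4 to 31.4, and the natural killer and cytotoxic members at 23.4 to 24.2, 14.9 to 15.8 and 22.3 to 23.7. B cell and plasma cell markers fell in 7 of 9 genes in CD11c-negative and 8 of 9 in CD11c-positive disease against healthy, with summed levels of 66.8 to 75.2, 43.6 to 51.0 and 27.9 to 31.0. Neutrophil markers ran the other way, with 8 of 9 higher in CD11c-negative disease and sums of 407 to 427, 1542 to 1688 and 636 to 669.

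The other marker lists are given for the same reason, with each list's brightest gene in the healthy, CD11c-negative and CD11c-positive groups. The shares of all genes called in each direction are those given for the dendritic cell markers. All 6 Kupffer cell markers were lower in both disease groups than in healthy cells and lower in the CD11c-positive than in the CD11c-negative fraction; Cd5l, a secreted scavenger protein, was at 9.77, 9.58 and 9.36. Of 7 macrophage markers, 4 higher and 2 lower were called in CD11c-negative disease and 1 higher and 5 lower between the disease fractions, and Csf1r, the receptor that maintains macrophages, was at 9.29, 9.34 and 8.97. Of 6 plasmacytoid dendritic cell markers, 1 higher and 5 lower were called in CD11c-negative disease, and Siglech, a lectin of these cells that some macrophages share, was at 7.54, 7.19 and 7.09. Markers of sinusoidal endothelium were lower in 8 of 9 genes in each comparison with healthy cells, with Clec4g at 7.09, 6.35 and 5.28. Hepatocyte markers fell in 4 of 6 genes in CD11c-negative and 5 of 6 in CD11c-positive disease, with Serpina1c at 5.71, 4.33 and 3.69. Of 4 basophil and mast cell markers, 1 higher and 2 lower were called in CD11c-negative disease, with Hdc at 2.54, 3.13 and 2.05; of 4 platelet and erythroid markers, 2 higher and 2 lower, with Pf4 at 5.34, 6.66 and 6.06. The brightest genes of the earlier lists were Wdfy4 (5.54, 4.70 and 5.87) for conventional dendritic cells, Jchain (5.21, 4.37 and 3.34) for B and plasma cells and S100a9 (7.71, 9.52 and 8.39) for neutrophils.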

How the data were processed

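Each of the 15 one-colour Agilent arrays held 62976 spots, 3671 of them controls, and 55681 probes. Scanner intensity values were made with Agilent Feature Extraction 10.7.3.1, per the submitters' processing notes, and the processed intensity per spot was used as the authors deposited it. Log2 values the authors deposited as a matrix served as an alternative. They differed by a median of 0.00146 from the scaled scanner values less each probe's median over the healthy arrays. The array design, per the file headers, refers to mm9. Here log2 of the processed signal was taken, outlier spots (113 to 190 an array) were left out, repeated spots were averaged and the array's 75th percentile (358.6 to 562.4) was subtracted. From 45.8% to 58.0% of spots were well above background, and 0 were saturated.

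Probes were named through RefSeq accessions (26582 probes), 28175 probes passed the background filter, and the brightest passing probe stood for its gene. limma 3.58.1 in R 4.3.3 was fitted to all 15 arrays, with Benjamini-Hochberg adjustment over 13390 genes, and was tested on simulated data. Named with values are, per comparison, the 3 members of each class with the largest difference among those called without overlap, members called against most of their class, members above the 75th percentile in a group, and from each other list the called genes with the largest rise and fall or, for markers, the brightest gene. A gene that this rule names in the T cell receptor pathway list is not reported here. The members and lists were chosen with earlier results of these data known. Alternatives were normexp background correction (offset 50), quantile normalization, other filters, the mean of a gene's probes, slide and replicate number as blocks, single slides and leaving out arrays. Promoters are from RefSeq (GRCm38.p6); no genome was used here. The genes of the receptor's own constant regions were not tested here.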

Additional observations from a re-analysis of the deposited data

Results flagged for a closer look

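Within the groups of 5 arrays, 95 sets of member values were tested for an array apart from the other 4, by the gap to its neighbour over the range against a critical value of 0.71; chance gives about 1 in 20, and 2 were found. Sh2d1a on CD11c-positive replicate 2 was at -3.63, with the nearest array at -3.09, and was not well above background there. Klrb1c on healthy replicate 4 was at -1.23, above the nearest healthy array at -1.50.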

How the results depend on the processing

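Over 27 settings, 108 pairs of a member and a comparison gave 2880 values, of which 2791 kept their sign and side of the threshold, 50 lost and 19 gained a call, 3 called differences changed sign, and 17 changed sign without being called on either side (Cd3e and Nkg7 in CD11c-negative against healthy, Sh2d1a, Trat1 and Eomes between the disease groups, Cd8a and Klre1 in CD11c-positive against healthy); the cause was not tested. Of called results the sign changed for Lef1 between the disease groups under normexp (-0.084), and in CD11c-positive against healthy Nkg7 under quantile normalization (-0.12), Cd6 as the mean of its probes (0.0059) and the natural killer median over members above background on all 15 arrays (-0.31). Under normexp the T cell and natural killer medians were -0.75 and -0.95 for CD11c-negative against healthy, 0.21 and 0.47 between the disease groups and -0.51 and 0.0047 for CD11c-positive against healthy. For the last comparison they were -0.84 and 0.22 under quantile normalization, and the natural killer median was 0.17 on slide 2. The all-array filter gave a T cell median of -1.22 for CD11c-negative against healthy.

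Leaving out 1 array at a time, in that comparison 30 to 31 members were lower and 2 to 3 higher, with medians of -1.52 to -1.37 (T cell) and -1.61 to -1.51 (natural killer). Between the disease groups 28 to 29 were higher and 1 to 2 lower, with medians of 0.61 to 0.74 and 1.27 to 1.31. In CD11c-positive against healthy 23 to 24 were lower and 6 to 7 higher, with medians of -0.76 to -0.70 and 0.055 to 0.16. Deviations of same-numbered samples correlated at -0.20 to 0.37, over 0.1 in 11 of 15 pairs and not in all, and were not taken as paired. The 15 pairs mix healthy with disease samples, and those between the disease fractions were not looked at apart. Whether fractions of the same number came from the same mice cannot be told from these correlations. On the same slide the median was 0.24 for the same number (13 pairs, all above 0) and 0.18 for different numbers, and on different slides it was -0.18 for both. With a replicate block, 31 members were lower in CD11c-negative against healthy, 28 were higher and 2 lower between the disease groups, and 23 lower and 7 higher in CD11c-positive against healthy. Genes near background (Lef1, Trat1, Eomes, Sh2d1a) are limited by signal. Without the array of highest background floor in each group, chosen after seeing the data, the Eomes call in CD11c-negative against healthy was lost (adjusted p = 0.141 by limma).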

Other observations

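Inhibitory and residency receptors of T cells, several of which myeloid cells also carry, gave other counts than the members. Over all genes tested, 48.3% were called higher and 28.5% lower in CD11c-negative disease against healthy, 29.9% and 23.2% in CD11c-positive against CD11c-negative, and 51.4% and 26.3% in CD11c-positive against healthy. Of 7 of these receptors measured, 6 were higher and 1 lower in CD11c-negative disease than in healthy cells (median 0.77), and all 7 were higher in the CD11c-positive group than in healthy cells (median 1.11), by limma. Lag3, an inhibitory receptor that binds MHC class II, went from -2.75 in the healthy group to 0.43 and 0.97 in the CD11c-negative and CD11c-positive disease groups. Btla, an inhibitory receptor of lymphocytes and dendritic cells, went from 0.95 to -2.33 and 1.72, differing by -3.28 (SE 0.0523) and 4.05 (SE 0.0523).

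Of 13 measured helper, regulatory and innate-like lymphocyte genes, 8 were lower and 4 higher in CD11c-negative disease than in healthy cells, and 7 were higher and 1 lower in the CD11c-positive than in the CD11c-negative fraction. Il10, an anti-inflammatory cytokine that macrophages also make, rose from 1.12 to 3.09 in CD11c-negative disease and was at 2.28 in the CD11c-positive group. Il17a, a cytokine of helper and innate-like T cells, was at least 2.72-fold higher in the CD11c-positive group than in the healthy one, with 5 and 0 arrays above background. It could pass the filter only through a disease group, so no p is given. Il2ra, a chain of the interleukin 2 receptor, was at least 1.29-fold lower in CD11c-negative disease than in healthy cells. It was at least 1.63-fold higher in the CD11c-positive than in the CD11c-negative fraction. Above background were 3 healthy, 0 CD11c-negative and 4 CD11c-positive arrays. Il2ra passed the filter only through the CD11c-positive group, so no p is given. Blk, a kinase of B cells and of interleukin 17-producing T cells, was at least 2.26-fold lower in the CD11c-positive group than in the healthy one, with 0 and 5 arrays above background. Of 3 adaptors shared by natural killer and myeloid cells, all 3 were lower in the CD11c-positive than in the CD11c-negative fraction; Tyrobp, the adaptor DAP12, fell most (-0.32, SE 0.0255). Against healthy cells Fcer1g, the shared Fc receptor gamma chain, rose in both disease groups (0.46, SE 0.0432, and 0.25, SE 0.0432) and Hcst, the adaptor of NKG2D, fell in both (-0.15, SE 0.0480, and -0.44, SE 0.0480).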
